A study of Mus musculus with 6 samples.

Results

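Galectins are soluble lectins that bind beta-galactosides, and their preferred ligands are the lactosamine units at the ends of N-glycans and O-glycans. They are made in the cytosol, leave the cell by an unconventional route, and cross-link glycoproteins at the cell surface. In liver they are known mainly from macrophages, stromal cells and cells under stress. The family is usually divided by architecture into prototype members with a single carbohydrate-recognition domain, the chimeric galectin-3 with a collagen-like tail, and tandem-repeat members that join a pair of such domains by a linker.

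The list held 10 genes, namely 8 galectins, the galectin-related gene Lgalsl and the galectin-3 ligand gene Lgals3bp. A member was taken as measured where the RefSeq accession in a probe set's identifier belonged to the gene. This gave 9 of the 10, with 1 probe set each, among 908 named genes and 1246 probe sets, and Lgals3bp was not analysed here. The samples were total RNA from livers of 3 diabetic and 3 wildtype male mice, hybridised to a glycan-focused Affymetrix array with 1 sample per array. The diabetes is described as insulin-deficient, while the labels used here state neither how it was induced nor the strain, the age or the feeding state. The labels do not say that each array came from a separate animal, so the p-values may measure technical spread only.

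Values are log2 expression values made by the authors, over which the arrays' medians ran from 4.93 to 5.06 and single values from 2.03 to 13.45. All 8 measured members of a fixed hepatocyte list had means above the median of all probe sets. In bulk liver RNA, fewer cells of a type and less RNA per cell cannot be told apart. A value near the low end was not separated from background, because no detection call was used. The number of arrays limits the precision, with a median standard error (SE) of 0.11 over all differences.

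Galectin signals covered a wide range and the group means had the same order in both groups. Lgals9 was the brightest, with a mean over 6 arrays of 10.34, and stood 45th among all 1246 probe sets. It was followed by Lgals8 at 8.83, Lgals4 at 7.74, Lgals1 at 7.21, Lgals7 at 5.91, Lgalsl at 5.65, Lgals3 at 5.59, Lgals2 at 5.23 and Lgals12 at 4.18. Only Lgals12, known from adipocytes, had a mean below the median of all probe sets. The ranges over the arrays did not overlap between Lgals9 and Lgals8, between Lgals1 and Lgals7, between Lgals3 and Lgals2, or between Lgals2 and Lgals12. They did overlap between the other neighbours in this order, and Lgals4 was above Lgals1 on 3 of 6 arrays. These are the signals of different probe sets, whose probes can bind with different strength, so the order is not one of transcript amounts.

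**Figure D1:**
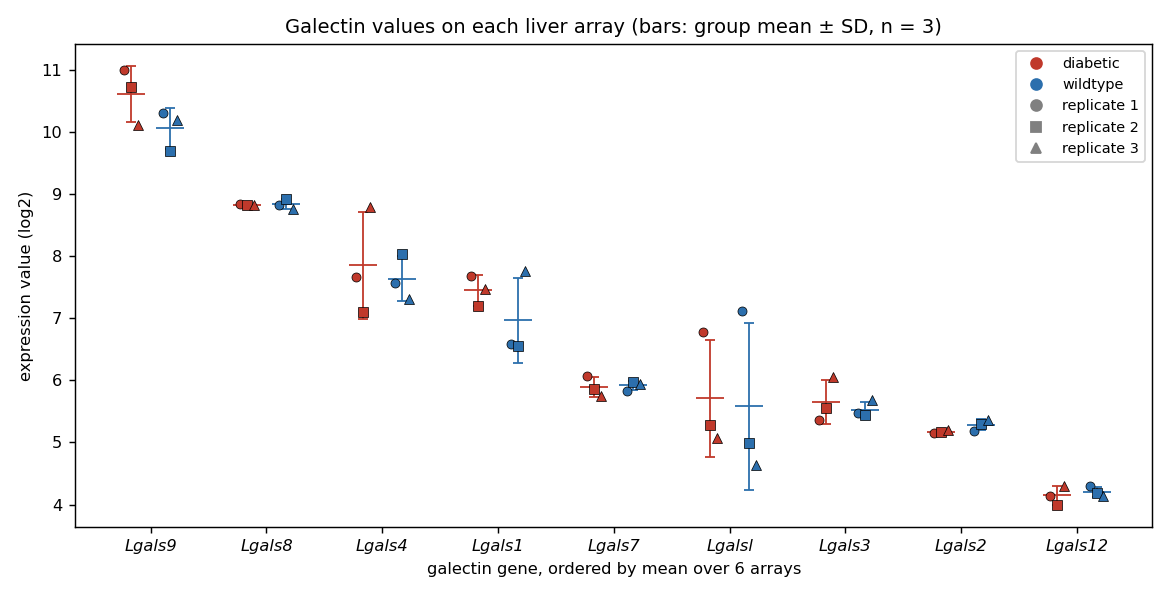
Expression value (log2, vertical axis) of each measured galectin on each array, with diabetic arrays left in red, wildtype arrays right in blue, and marker shape for the replicate number. Horizontal bars and whiskers are group means and SD (n = 3 per group); the groups overlap for all 9 genes, and both arrays numbered 1 stand above the rest for Lgalsl.

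Diabetic and wildtype liver did not differ at the threshold for any measured galectin. The largest differences, 0.55 for Lgals9 and 0.48 for Lgals1, were both higher in diabetic liver, and their confidence intervals included 0. By limma, adjusted over all probe sets by the Benjamini-Hochberg method, 0 of 9 galectins had an adjusted p under 0.05, where 0.321% of all probe sets did. At an unadjusted p under 0.05 the count was also 0 of 9, against 2.97% of all probe sets. The ordinary linear model called 0 of 9 as well, and so did the fit blocked on replicate number, which called 0% of all probe sets. In 0 of 9 galectins did the 3 diabetic arrays lie wholly on one side of the wildtype arrays, which 7.87% of all probe sets showed. Mean values were higher in diabetic liver for 5 galectins and lower for 4, and 50.6% of all probe sets had a higher mean. The median difference over the 9 galectins was 0.13, beside 0.0020 over all probe sets. The galectin median was -0.016 without diabetic 1, -0.0049 without diabetic 3 and -0.012 without wildtype 3, so its sign depended on single arrays.

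**Figure D2:**
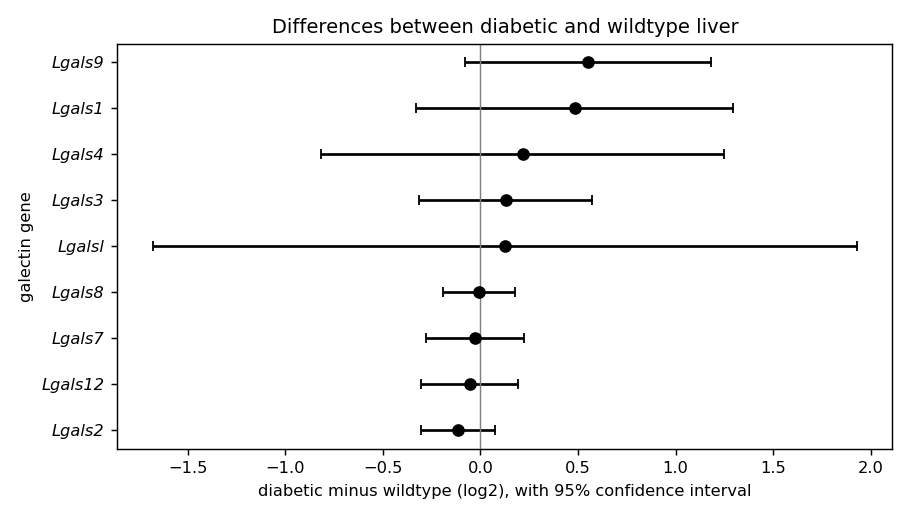
Difference between diabetic and wildtype liver (log2, horizontal axis) for each measured galectin, with its 95% confidence interval from limma. All 9 intervals include 0; the widest belongs to Lgalsl, from -1.68 to 1.93, and the narrowest are those of Lgals8 and Lgals2.

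Among the prototype galectins, Lgals1 encodes galectin-1, a homodimer made by stromal, endothelial and immune cells. Its values were 7.68, 7.20 and 7.46 in diabetic livers 1, 2 and 3, against 6.59, 6.55 and 7.75 in wildtype livers 1, 2 and 3. Wildtype 3 was the highest of all 6 arrays, while the other wildtype arrays were below every diabetic array. Lgals1 averaged 7.45 ± 0.24 over the diabetic arrays and 6.96 ± 0.68 over the wildtype arrays (SD, n = 3 each), so the difference was 0.48, with 95% limits of -0.33 and 1.30 (limma adjusted p = 0.928). Leaving out wildtype 3 gave 0.88 (limma adjusted p = 0.290), and leaving out wildtype 2 gave 0.28. Stellate cells and fibroblasts also express Lgals1, and 6 of their markers were measured. Their mean was 4.70 to 4.98 in diabetic livers and 4.74 to 5.24 in wildtype livers. This mean was highest on wildtype 3, as Lgals1 was, but lowest on diabetic 1, where Lgals1 was 7.68. The mean of the 6 measured endothelial markers was also highest on wildtype 3, at 5.61. The part of these cells in the Lgals1 values was not tested.

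Lgals2, a prototype galectin of the gut epithelium, and Lgals7, that of stratified epithelia, had modest values that varied little between arrays. Lgals2 was 5.15, 5.16 and 5.20 in diabetic livers 1, 2 and 3, against 5.19, 5.30 and 5.36 in wildtype livers 1, 2 and 3. Only diabetic 3 and wildtype 1 crossed, and the diabetic array was the lower in each of the 3 same-numbered pairs. The Lgals2 difference of -0.11 (95% limits -0.30 and 0.08) did not pass (limma adjusted p = 0.928). Lgals7 ranged from 5.75 to 6.07 in diabetic and from 5.83 to 5.98 in wildtype liver, with a difference of -0.03 (-0.28 to 0.23; limma adjusted p = 0.990). That sign turned to 0.044 without diabetic 3 and to 0.0033 without wildtype 2.

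Lgals3, the chimeric galectin-3 first known as the macrophage antigen Mac-2, was 5.37, 5.56 and 6.05 in diabetic livers 1, 2 and 3, against 5.47, 5.44 and 5.68 in wildtype livers 1, 2 and 3. The groups overlapped, and diabetic 3 and wildtype 3 were the highest arrays. Lgals3 averaged 5.66 ± 0.35 over the diabetic arrays and 5.53 ± 0.13 over the wildtype arrays (SD, n = 3 each), which made the difference 0.13 (95% limits -0.31 and 0.57; limma adjusted p = 0.975). It was -0.068 without diabetic 3.

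The tandem-repeat Lgals9 encodes galectin-9, a regulator of immune cells whose receptors include Tim-3. Its values were 10.99, 10.73 and 10.11 in diabetic livers 1, 2 and 3, against 10.30, 9.69 and 10.20 in wildtype livers 1, 2 and 3. Diabetic 1 and 2 were above all wildtype arrays, and diabetic 3 was below wildtype 1 and 3. Lgals9 averaged 10.61 ± 0.45 over the diabetic arrays and 10.06 ± 0.33 over the wildtype arrays (SD, n = 3 each), a 1.46-fold difference whose 95% confidence interval ran from 0.945-fold to 2.27-fold. It did not pass (limma unadjusted p = 0.0775, adjusted p = 0.928, and adjusted p = 0.822 with the replicate block). The log2 difference was 0.80 without diabetic 3, but 0.36 without either diabetic 1 or wildtype 2. The Lgals9 probe set is among 5 galectin probe sets whose suffix marks probes shared by several transcripts, the others being those of Lgals1, Lgals3, Lgals4 and Lgals7.

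Lgals4, the tandem-repeat galectin of intestinal epithelium, had the widest spread after Lgalsl. It was 7.66, 7.11 and 8.79 in diabetic livers 1, 2 and 3, against 7.57, 8.03 and 7.31 in wildtype livers 1, 2 and 3. Diabetic 3 was the highest array and diabetic 2 the lowest, so the diabetic arrays enclosed all the wildtype ones. Lgals4 averaged 7.85 ± 0.86 over the diabetic arrays and 7.63 ± 0.36 over the wildtype arrays (SD, n = 3 each), and the difference of 0.22 (95% limits -0.81 and 1.25; limma adjusted p = 0.990) turned to -0.25 without diabetic 3. Some mouse strains carry Lgals6, a near-identical neighbour of Lgals4, whose transcripts the Lgals4 probes could also bind. Of 8 intestinal epithelium genes, Muc13 and Reg4 were measured, and their mean was 5.18 to 5.31 in diabetic and 5.29 to 5.64 in wildtype livers, with diabetic 3 at 5.28. This mean was highest on wildtype 2, at 5.64, and Reg4 was below the median of all probe sets, at 4.33. The part of such tissue in the Lgals4 values was not tested.

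Lgals8 encodes galectin-8, which binds glycans exposed on damaged endosomes and recruits the autophagy machinery. It was the steadiest galectin, at 8.84, 8.82 and 8.82 in diabetic livers 1, 2 and 3, against 8.82, 8.92 and 8.77 in wildtype livers 1, 2 and 3. Its difference was -0.01, with 95% limits of -0.19 and 0.18 (limma adjusted p = 0.990). That interval leaves out a rise or fall of 0.5 on the log2 scale, as did the intervals of 4 galectins in all, the others being Lgals2, Lgals7 and Lgals12. The sign of the Lgals8 difference turned to 0.037 without wildtype 2. The dim Lgals12 ranged from 3.999 to 4.30 in diabetic and from 4.14 to 4.29 in wildtype liver, with a difference of -0.06 (-0.30 to 0.19; limma adjusted p = 0.990) and 0.020 without diabetic 2. A value this low can hide a difference, so the narrow interval of Lgals12 does not exclude a change.

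Lgalsl encodes a galectin-related protein with a galectin fold that, from work on the human protein, does not bind lactose. It was 6.79, 5.28 and 5.07 in diabetic livers 1, 2 and 3, against 7.12, 4.9995 and 4.63 in wildtype livers 1, 2 and 3. The array numbered 1 was the highest in each group, by more than the difference between the groups. Lgalsl averaged 5.71 ± 0.94 over the diabetic arrays and 5.58 ± 1.35 over the wildtype arrays (SD, n = 3 each), and the difference of 0.13 had 95% limits of -1.68 and 1.93 (limma adjusted p = 0.990). With the replicate block the SE of this difference was 0.18 in place of 0.75, and the adjusted p was 0.906. The difference was 0.90 without wildtype 1, -0.41 without diabetic 1, -0.17 without wildtype 2 and -0.35 without wildtype 3.

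**Figure D3:**
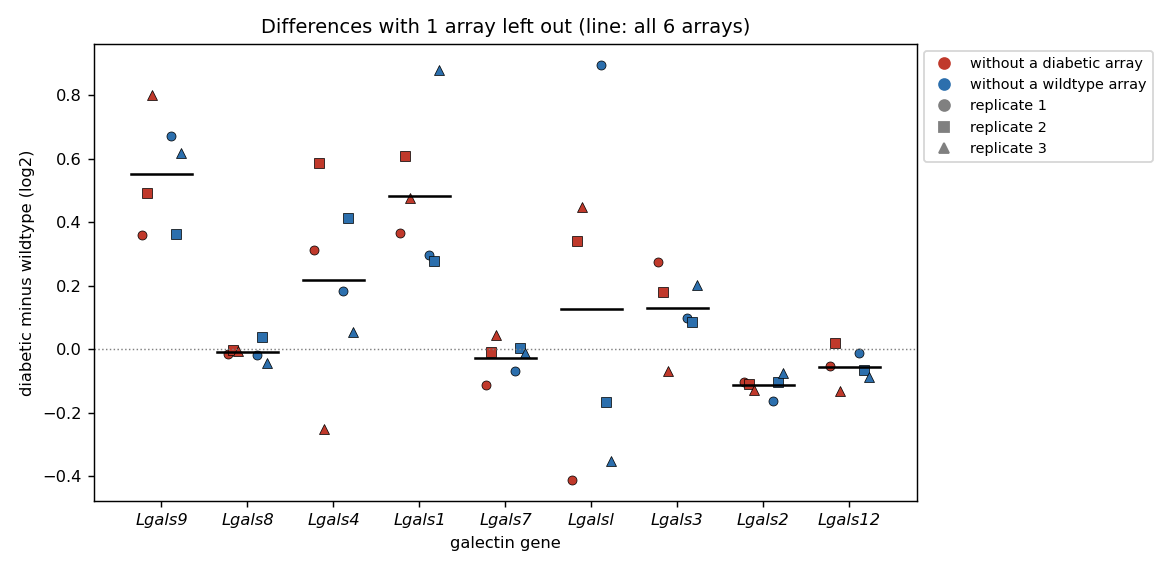
Difference between diabetic and wildtype liver (log2, vertical axis) for each galectin with 1 array left out, in red without a diabetic array and in blue without a wildtype array, with marker shape for the replicate number left out. The black line is the value from all 6 arrays; Lgals9 and Lgals1 stay above 0 and Lgals2 below 0, while Lgalsl runs from -0.41 to 0.90.

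Both groups carry replicate numbers 1 to 3, without a statement of what a shared number stands for. Deviations from the group means were compared between arrays of the same number over 1246 probe sets. They correlated at 0.397 for number 1, 0.138 for number 2 and 0.162 for number 3. Correlations between arrays of different numbers were not taken, so sharing particular to the number was not shown. Lgalsl had a mean of 6.96 on the arrays numbered 1, 5.14 on those numbered 2 and 4.85 on those numbered 3. Its excess on number 1 over the other numbers, 1.96 on the log2 scale, was the largest in size of all 1246 probe sets. The number took 96.5% of the sum of squares of Lgalsl over the arrays, and the split into diabetic and wildtype took 0.437%.

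A moderated F test of the replicate number beside the group gave Lgalsl an unadjusted p of 0.000867, the second smallest of all probe sets, and a limma adjusted p of 0.398. By that test 0 of 9 galectins and 0% of all probe sets passed, and the ordinary linear model also called 0. At an unadjusted p under 0.05 the test gave 1 of 9 galectins, against 8.03% of all probe sets. The test had 2 residual degrees of freedom, and the Lgalsl pattern was known from earlier results of these data, so the test is no independent support for it.

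Lgals3 followed the replicate number next most closely. In these 2 of 9 galectins both arrays of some number stood above or below the other 4, which 38.8% of all probe sets showed, and 20.5% showed it for number 1 as Lgalsl did. The number accounted for 73.6% of its sum of squares, with a mean of 5.87 on the arrays numbered 3, 5.50 on number 2 and 5.42 on number 1 (limma adjusted p = 0.643). Its 2 arrays numbered 3 were above all others, which 6.66% of all probe sets showed for that number. Of 6 measured macrophage and Kupffer cell markers, 5 also had both arrays numbered 3 above the other 4. These were Adgre1, Csf1r, Mrc1, Cd74 and Siglec1, the exception being Clec4f, and these markers were set beside Lgals3 after its values had been seen. The mean of all 6 markers was 5.59, 5.74 and 6.36 in diabetic livers 1, 2 and 3, against 5.74, 5.77 and 6.17 in wildtype livers 1, 2 and 3. It was thus highest on the same arrays as Lgals3, and its part in the Lgals3 values was not tested. Among the 6 measured endothelial markers, and likewise among the 6 of stellate cells and fibroblasts, 3 had both arrays numbered 3 above the rest. The means of both lists were also highest on diabetic 3 and wildtype 3. They were 5.60 and 5.61 for the endothelial list, and 4.98 and 5.24 for the stellate cell and fibroblast list. Between the groups, 0 of the 6 macrophage markers passed the limma threshold, where 0.321% of all probe sets did. Their median difference was 0.0039, with -0.41 for Cd74 and 0.31 for Adgre1.

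**Figure D4:**
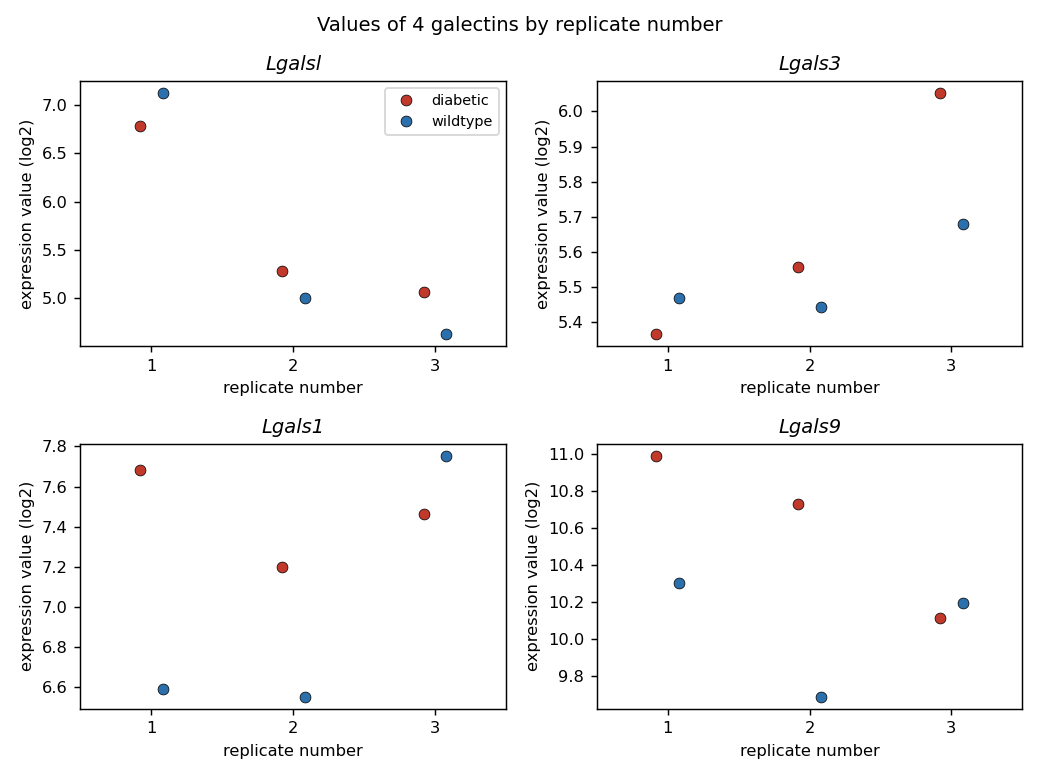
Expression value (log2, vertical axis, a separate scale in each panel) of Lgalsl, Lgals3, Lgals1 and Lgals9 against the replicate number, with diabetic arrays in red and wildtype arrays in blue. Both arrays numbered 1 are high for Lgalsl and both numbered 3 for Lgals3, while for Lgals1 and Lgals9 the diabetic array is above its wildtype partner for numbers 1 and 2 and below it for number 3.

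Both Lgals1 and Lgals9 had the diabetic array above the wildtype array of the same number in 2 of 3 pairs. So did Lgals3, Lgals4, Lgals8 and Lgalsl, so this is not particular to Lgals1 and Lgals9. For Lgals9 the pair differences were 0.69, 1.04 and -0.08 for numbers 1, 2 and 3, and for Lgals1 they were 1.09, 0.65 and -0.29. The pair numbered 3 thus went the other way for both genes. In 0 of 9 galectins was the diabetic array higher in all 3 pairs, which 14.3% of all probe sets showed. It was lower in all 3 pairs for Lgals2 alone, and the share of all probe sets lower in all 3 was not taken. The split into diabetic and wildtype took 42.2% of the sum of squares of Lgals9 and 25.0% of that of Lgals1. It took 53.4% of that of Lgals2, whose whole range was only 0.21. With so few arrays, spread alone also gives this split a share, and none of these genes passed. Its share over all probe sets was not taken. For Lgals4 and Lgals7, 80.4% and 82.2% fell to neither the group nor the number. The median share for the number was 34.3% over the galectins and 43.3% over all probe sets.

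**Figure D5:**
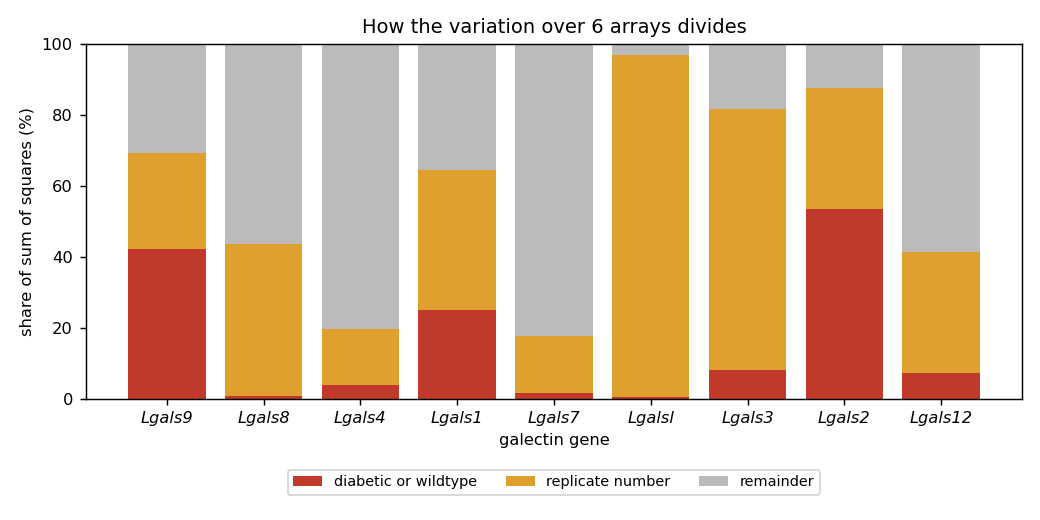
Share of each galectin's sum of squares over the 6 arrays (percent, vertical axis) that falls to diabetic against wildtype, to the replicate number and to the remainder. The number takes 96.5% for Lgalsl and 73.6% for Lgals3, and diabetic against wildtype takes its highest shares for Lgals2 and Lgals9.

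The galectins that varied most over the arrays were Lgalsl and Lgals4, and the genes of most similar profile were sought among 907 others. Likeness was measured as the root mean square difference between profiles centred on their own means, over 6 arrays. Nearest to Lgalsl were Piga, which starts GPI anchor synthesis, at 0.304, Uap1, which makes UDP-GlcNAc, at 0.559, and Alg2, a mannosyltransferase of the dolichol pathway, at 0.576, where the median over all genes was 0.966. Piga was 7.43, 6.07 and 6.29 in diabetic livers 1, 2 and 3, against 8.09, 6.01 and 6.22 in wildtype livers 1, 2 and 3, so its arrays numbered 1 also stood highest. Nearest to Lgals4 were Met, the hepatocyte growth factor receptor, at 0.252, Ugt1a10, a glucuronosyltransferase, at 0.290, and Ifnar2, an interferon receptor subunit, at 0.293, with a median of 0.555. Ugt1a10 was dim, from 3.10 to 3.96 over the arrays, and was not separated from background. Met was 8.76, 8.48 and 9.44 in diabetic livers 1, 2 and 3, against 8.48, 8.85 and 8.58 in wildtype livers 1, 2 and 3, and it too was highest on diabetic 3. The SD over 6 arrays was 1.04 for Lgalsl and 0.60 for Lgals4, against a median of 0.14 over all probe sets. The median distances thus reflect mostly each galectin's own spread, and do not show how close a match is. These likenesses are descriptions over arrays that share their normalization. The genes were picked by their likeness on these same arrays, so their shared highest arrays follow from that choice.

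By position, Lgals4 and Lgals7 are next to each other among the protein-coding genes of chromosome 7, and Lgals1 and Lgals2 lie on chromosome 15 with 3 such genes between them. Lgals4 ranged over 1.68 on the log2 scale and Lgals7 over 0.31, while Lgals1 ranged over 1.20 and Lgals2 over 0.21.

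Galectin ligands are built by enzymes that branch N-glycans and extend lactosamine, and 20 of 21 listed genes of this kind were measured. Of these, 10 had higher and 10 lower means in diabetic liver, and the median difference was 0.0044. In either direction 0 passed the limma threshold, where 0.321% of all probe sets did, so this count is not particular to these genes. Mgat4b, which adds a branch to N-glycans, averaged 6.74 ± 0.16 over the diabetic arrays and 6.52 ± 0.09 over the wildtype arrays (SD, n = 3 each; limma adjusted p = 0.928). B4galt1, the galactosyltransferase that makes lactosamine, averaged 9.08 ± 0.38 over the diabetic arrays and 9.43 ± 0.22 over the wildtype arrays (SD, n = 3 each; limma adjusted p = 0.928).

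Enzymes that cap or fucosylate these glycans alter how well galectins bind them. Of 11 measured from a list of 12, 5 had higher and 6 lower means in diabetic liver, and the median difference was -0.0077. In this list 0 passed, where 0.321% of all probe sets did. Fut8, which adds the core fucose, was 5.49, 5.36 and 5.55 in diabetic livers 1, 2 and 3, against 5.26, 5.17 and 5.33 in wildtype livers 1, 2 and 3. The lowest diabetic array was above the highest wildtype array, and 7.87% of all probe sets had groups that did not overlap. Among the other list genes named here, Mgat4b, Reg4, Igfals and Mbl2 also had groups that did not overlap. The Fut8 difference of 0.21, of smallest p in its list, did not pass (limma unadjusted p = 0.0480, adjusted p = 0.928). St3gal3, a sialyltransferase, differed by -0.24 (limma adjusted p = 0.928).

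Of 28 listed glycoproteins that bind galectins, 8 were measured. Their means were higher in diabetic liver for 5 and lower for 3, and the median difference was 0.045. Of these 8, 0 passed, where 0.321% of all probe sets did. Tgfbr2, a TGF-beta receptor chain, differed by 0.69 at its brighter probe set and by 0.09 at its dimmer one, with limma adjusted p = 0.928 and 0.942. Havcr2, the gene of the galectin-9 receptor Tim-3, was dim, at 3.38 ± 0.17 over the diabetic arrays and 3.55 ± 0.12 over the wildtype arrays (SD, n = 3 each), a difference of -0.17 (limma adjusted p = 0.928).

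Marker lists of other liver cell types held 6 measured genes each for lymphocytes, endothelial cells and stellate cells with fibroblasts. In these lists 0 genes passed the limma threshold, where 0.321% of all probe sets did. Over the arrays, the lymphocyte list mean was 3.90 to 3.95 in diabetic and 3.79 to 3.88 in wildtype livers, with only 1 of its 6 genes above the median of all probe sets. Its members of smallest p, Cd72 and Klrd1, differed by 0.17 and 0.10. The endothelial list mean was 5.25 to 5.60 in diabetic and 5.38 to 5.61 in wildtype livers, with -0.30 for the adhesion receptor Selp and -0.22 for Icam2. Of the stellate cell markers, the PDGF receptor genes Pdgfrb and Pdgfra differed by -0.38 and -0.10. Of the intestinal markers, Muc13 differed by -0.25 and Reg4 by -0.14. In the hepatocyte list 1 of 8 genes passed, where 0.321% of all probe sets did, and the list was chosen with earlier results known. This gene was Mbl2, with a difference of 1.03 (limma adjusted p = 0.0412, and 0.142 with the replicate block). The ordinary linear model called 0 of all probe sets, Mbl2 included. Igfals differed by -0.61 (limma adjusted p = 0.928). Cholangiocyte and adipocyte markers were not analysed here.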

How the data were processed

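Per the submitters' processing notes, the authors made the deposited log2 expression values, 1 column per array, with RMA, a method of background correction, normalization between arrays and probe set summary. Its settings are not stated there, and the log2 scale was read from the range of the values. A RefSeq gene table of GRCm38.p6 named 962 of the 984 probe sets that carry a RefSeq accession, and 284 of 1246 stayed unnamed. Where a gene had several probe sets, the brightest on average stood for it.

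Limma 3.58.1 (lmFit, eBayes; R 4.3.3) was fitted over all probe sets to diabetic minus wildtype, with Benjamini-Hochberg adjustment, a threshold of 0.05, and 4 residual with 2.44 prior degrees of freedom. Replicate number was tested by an F test beside the group. All 3 same-number correlations exceeded 0.1, so the numbers were treated as pairs in a blocked fit. The blocked group fit and the replicate number fit were tested on simulated data, and the unblocked group fit was not.

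The members and lists were chosen with earlier results of these data known. All measured galectins are named, with the 3 most similar genes of the 2 most variable galectins and the 2 members of smallest p from each ligand, partner and marker list. The other macrophage markers were named after their values were seen.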

Additional observations from a re-analysis of the deposited data

How the results depend on the processing

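The count of called galectins was 0 of 9 under all alternatives run, for diabetes and for the replicate number, with the threshold at 0.10 included. Over all probe sets, 4 were called for diabetes, against 0 with the replicate block, with the trend and robust setting and with the ordinary linear model, and between 0 and 1 with 1 array left out. For the replicate number 0 were called, and between 0 and 3 with 1 array left out. The 3 without diabetic 3 held no measured galectin, but included an unnamed probe set. Lgalsl had adjusted p between 0.0757 and 0.984 in the replicate number tests. The galectin median difference of 0.13 was -0.0052 with array weights and ran from -0.016 to 0.18 with 1 array left out. With array weights Lgalsl reversed to -0.0063, the 1 reversal outside the refits that left out an array. Over those refits the differences ran from 0.28 to 0.88 for Lgals1, -0.16 to -0.075 for Lgals2, -0.068 to 0.27 for Lgals3, -0.25 to 0.59 for Lgals4, -0.11 to 0.044 for Lgals7, -0.042 to 0.037 for Lgals8, 0.36 to 0.80 for Lgals9, -0.13 to 0.020 for Lgals12 and -0.41 to 0.90 for Lgalsl. For Lgals7 the reversed values were 0.044 without diabetic 3 and 0.0033 without wildtype 2, and for Lgalsl also -0.17 without wildtype 2 and -0.35 without wildtype 3. The cause of the reversals was not tested. The block changed no galectin call, and it cannot move a difference here. Leaving out dim probe sets removed Lgals12. Using all probe sets of a gene was not run, since each measured galectin had 1 named probe set. Signal over background limits the dim galectins.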
